A study of Arabidopsis thaliana with 9 samples.

Results

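The 40 loci described here make the phenylpropanoids, flavonols and anthocyanins of *Arabidopsis thaliana* or regulate their synthesis, and they were taken by locus from the 37363 genes listed for each library. They comprised 8 enzymes of the general phenylpropanoid pathway, 6 of early flavonoid synthesis, 4 of flavonol glycosylation, 8 of anthocyanin synthesis and modification, 3 flavonol MYB factors, 6 members of the MYB-bHLH-WD40 activator complex and 5 repressors. In the direct comparison of both low R:FR treatments, transcripts of flavonol synthesis were lower under reflected light from grass than under far-red LEDs.

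Phenylalanine ammonia-lyase turns phenylalanine into cinnamate, which further enzymes convert to activated coumarate. Chalcone synthase commits this precursor to flavonoids, from which flavonol synthase makes flavonols, the ultraviolet screens of leaves, and dihydroflavonol reductase opens the branch to the red anthocyanins. In *Arabidopsis* the early steps answer to the light signalling factor *HY5* and to the MYB factors *MYB11*, *MYB12* and *MYB111*, and the late steps to a complex of MYB, bHLH and WD40 proteins that single-repeat MYB proteins can disrupt.

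Leaf RNA of wild type Columbia plants was sequenced in 9 libraries, 3 per treatment, each from the rosette leaves of 3 plants aged 4 weeks. Weedy plants (the biological treatment) received far-red light reflected by grass around them, and far-red plants (the artificial treatment) received it from LEDs, both at an R:FR of 0.3, for 1 week after 3 weeks at the high ratio. Weed-free plants stayed at the high ratio, given as 1.4 in the sample labels, for all 4 weeks, and every group had a photoperiod of 12 h. The grass and the LEDs stood in separate growth chambers, which means that an effect of the chamber and one of the light source cannot be told apart, and no weed-free plants are described for the LED chamber.

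The 250 bases upstream of the annotated start were read from the RefSeq genome (TAIR10.1, the build of the files) for all 40 members and searched on both strands for the G-box CACGTG, a core bound by bZIP factors such as *HY5*, and for ACCTACC, an element bound by R2R3-MYB factors. The G-box letters stood in 8 of 40 members (20%), against 6.49% of 27443 protein-coding genes, and ACCTACC in 2 of 40 (5%), against 1.16%. The 4 windows below belong to members on which the results turn: *CHS* and *CHIL* hold a G-box, *4CL3* holds ACCTACC 2 times, and *FLS1* holds neither. Capitals mark the matched letters, and each window is written 5′ to 3′ on the strand of its gene.
CHS, chr5:4488226-4488475, plus strand: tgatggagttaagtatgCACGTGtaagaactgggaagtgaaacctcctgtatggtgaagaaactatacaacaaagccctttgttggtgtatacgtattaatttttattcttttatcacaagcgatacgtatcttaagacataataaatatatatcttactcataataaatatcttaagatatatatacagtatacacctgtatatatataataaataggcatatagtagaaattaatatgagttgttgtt
CHIL, chr5:1563036-1563285, plus strand: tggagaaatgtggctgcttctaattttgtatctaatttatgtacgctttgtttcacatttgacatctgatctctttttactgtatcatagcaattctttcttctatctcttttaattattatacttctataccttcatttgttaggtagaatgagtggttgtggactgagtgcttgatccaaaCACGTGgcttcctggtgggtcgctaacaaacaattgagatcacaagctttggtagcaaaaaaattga
4CL3, chr1:24171636-24171885, minus strand: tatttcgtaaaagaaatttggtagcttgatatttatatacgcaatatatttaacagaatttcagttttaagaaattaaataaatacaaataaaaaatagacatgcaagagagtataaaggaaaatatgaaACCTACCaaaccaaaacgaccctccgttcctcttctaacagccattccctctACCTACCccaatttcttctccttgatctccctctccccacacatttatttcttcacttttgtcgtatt
FLS1, chr5:2803583-2803832, plus strand: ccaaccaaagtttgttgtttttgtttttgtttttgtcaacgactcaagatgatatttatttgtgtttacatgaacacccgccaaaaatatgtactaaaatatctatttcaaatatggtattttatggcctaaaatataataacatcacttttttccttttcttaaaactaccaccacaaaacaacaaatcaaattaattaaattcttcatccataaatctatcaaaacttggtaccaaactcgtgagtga
The G-box began 233 bases before the annotated start of *CHS* and 67 bases before that of *CHIL*, and the ACCTACC letters of *4CL3* began at 120 and 68 bases. The other members with a G-box were *PAL4*, *F3H*, *DFR*, *UGT79B1*, *MYB12* and *PAP2*, and the other with ACCTACC was *UGT89C1*. A match describes the letters of the window and is not evidence of a bound site.

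Levels are given as TPM, a level corrected for gene length and for the library total. Of the 40 members, 26 reached 1 TPM in at least 3 libraries, the filter used here, and were tested among 17784 such genes. The test was limma on log2(TPM + 1) with Benjamini-Hochberg adjustment over all genes tested and a threshold of 0.05, so fold changes understate the change of low genes. The 14 members that did not pass the filter reached 1 TPM in at most 2 libraries, with 4.77 TPM (*F3H*) as the highest value. TPM keeps no depth, but the mean per-base coverage was 43.2 over members that passed and 0.624 over those that did not (medians over genes and libraries). The 3 leaf markers of the mesophyll summed to between 54120 and 62860 TPM in the low R:FR libraries and between 47150 and 60780 TPM in weed-free leaves, and the root markers to at most 0.212 TPM. Within the mesophyll list the genes went opposite ways, as *RBCS1A* averaged 21742 TPM in weedy and 45110 TPM in far-red leaves (log2 fold change -1.06, adjusted p = 0.000628), whereas *LHB1B1* averaged 16915 and 4217 TPM (2.02, 0.000612) and *CAB3* 18244 and 11309 TPM (0.68, 0.00958).

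Against weed-free, weedy leaves raised 2 of the 26 tested members and lowered 2, where 6.2% of all genes tested rose and 3.37% fell. Far-red leaves raised 5 and lowered 1, where 2.53% of all genes rose and 1.24% fell. In weedy against far-red leaves, 1 member was higher, below the 23.8% of all genes that were, and 13 were lower, against 13.6% of all genes. The median log2 fold change of the tested members was -0.13, 0.41 and -0.44 in the 3 comparisons in this order, beside 0.11, -0.04 and 0.15 over all genes. With median-ratio scaling, which brings the median of all genes to 0.01, 0.00 and 0.01, 1129 genes rose and 1360 fell in weedy leaves against weed-free, where TPM gave 1103 and 599. In weedy against far-red leaves the scaled split was 3485 higher and 3895 lower, where TPM gave 4240 and 2418, and the count of members lower stayed at 13.

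Replicate numbers went with a shared deviation in the far-red and weed-free libraries, so the fit was repeated with the number as a block. The block was fitted to all 9 libraries, so the weedy libraries, which did not meet the criterion for pairs, also shaped it. With the block, far-red leaves raised 11 members and lowered 1 against weed-free, where 4.61% of all genes rose and 3.65% fell. For weedy leaves against weed-free, where the numbers did not meet the criterion for pairs, the block gave 2 members higher and 4 lower, where 7.78% of all genes were higher and 5.07% lower. Replicate 3 stood apart in every group. Without it, a setting added after seeing the data, 13 members were higher and 1 lower in far-red leaves against weed-free, where 10.4% of all genes were higher and 6.96% lower. In weedy leaves against weed-free this setting gave 3 members higher and 6 lower, where 19.7% of all genes were higher and 9.42% lower.

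Among the 8 general phenylpropanoid genes, all of which were tested, far-red leaves raised *PAL1* (AT2G37040), *PAL2* (AT3G53260) and *4CL3* (AT1G65060). *PAL1*, a phenylalanine ammonia-lyase, stood at 36.7, 38.6 and 17.7 TPM in far-red leaves, against 13.0, 15.1 and 9.51 TPM in weed-free leaves. The libraries did not overlap, and the log2 fold change was 1.19 ± 0.28 (SE, adjusted p = 0.0467, limma). In weedy leaves *PAL1* stood at 9.51, 12.3 and 9.68 TPM and overlapped weed-free. *PAL2*, another ammonia-lyase, stood at 17.4, 18.8 and 14.0 TPM in far-red leaves, against 10.7, 10.2 and 7.27 TPM in weed-free leaves, a log2 fold change of 0.78 ± 0.17 (SE, adjusted p = 0.0329). Its weedy libraries had 12.3, 10.4 and 8.90 TPM and overlapped weed-free.

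*4CL3*, the 4-coumarate:CoA ligase tied to flavonoid synthesis, had the lowest mean TPM of the 3 ligases in weed-free leaves and the largest rise of the 8 genes. It reached 8.56, 7.88 and 3.72 TPM in far-red leaves, against 2.61, 1.64 and 1.39 TPM in weed-free leaves (log2 fold change 1.38 ± 0.26 SE, adjusted p = 0.0194). In weedy leaves it stood at 1.16, 0.866 and 1.29 TPM, below every weed-free library, but the difference did not pass the test (adjusted p = 0.279). *4CL1* (AT1G51680), the most abundant of the group, had 58.6, 65.9 and 38.4 TPM in far-red leaves, against 39.1, 40.2 and 31.4 TPM in weed-free leaves, which overlapped. Its 32.4, 23.4 and 35.9 TPM in weedy leaves lay below every far-red library (log2 fold change -0.80 ± 0.21 SE, adjusted p = 0.0146).

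*PAL3* (AT5G04230) went the other way from *PAL1* and *PAL2*. It fell to 6.71, 6.44 and 6.88 TPM in far-red leaves, against 10.5, 10.2 and 9.91 TPM in weed-free leaves (log2 fold change -0.55 ± 0.13 SE, adjusted p = 0.0397), and weedy leaves lay between with 7.05, 9.44 and 7.87 TPM. *4CL2* (AT3G21240) was the only member that passed the test as higher in weedy than in far-red leaves, with 3.39, 4.87 and 3.27 TPM against 2.60, 2.29 and 2.02 TPM (log2 fold change 0.54 ± 0.16 SE, adjusted p = 0.0248). With median-ratio scaling that difference no longer passed (adjusted p = 0.0741). Over all alternatives, the deposited counts included, its adjusted p ranged between 0.0168 and 0.788. *C4H* (AT2G30490), cinnamate 4-hydroxylase, had 15.6, 16.3 and 10.1 TPM in far-red leaves, against 9.06, 9.64 and 6.57 TPM in weed-free leaves. The libraries did not overlap, yet the difference did not pass in the main fit without the replicate block (adjusted p = 0.131). It passed with the block (0.0188), and the adjusted p ranged between 0.00517 and 0.425 over all alternatives. *PAL4* (AT3G10340) had 1.72, 1.41 and 1.48 TPM in weedy leaves, above all far-red and weed-free libraries, which lay between 0.690 and 1.20 TPM. Its log2 fold change of 0.38 between weedy and far-red leaves missed the threshold (adjusted p = 0.0503) and passed it with no filter, no trend, the replicate block or without weed-free replicate 3, with a range of 0.0365 to 0.174 over all alternatives.

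The early flavonoid genes differed most between treatments, and all 4 that passed the filter were lower in weedy than in far-red leaves. *CHS* (AT5G13930), chalcone synthase (chr5:4488476-4490264), stood at 12.0, 10.7 and 5.12 TPM in weedy leaves, at 223, 191 and 51.4 TPM in far-red leaves and at 23.3, 21.8 and 8.43 TPM in weed-free leaves. Every far-red library exceeded every other library, and replicate 3 was the lowest of its group each time. The mean of far-red leaves was 8.71 times that of weed-free leaves, and the ratio within a replicate number was 9.59, 8.78 and 6.09. The log2 fold change of 2.92 ± 0.67 (SE) did not pass the test (adjusted p = 0.0661) and did so with the replicate block (adjusted p = 0.000108). The log2 fold change of -0.83 in weedy leaves against weed-free did not pass either (adjusted p = 0.444), and with the block, although the numbers did not meet the criterion for pairs there, its adjusted p was 0.0255. Against far-red leaves, weedy leaves were lower by a log2 fold change of -3.75 ± 0.67 (SE, adjusted p = 0.00626).

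*CHIL* (AT5G05270), a chalcone isomerase-like protein that aids chalcone synthesis, rose to 24.1, 20.1 and 7.33 TPM in far-red leaves, against 3.71, 3.79 and 2.62 TPM in weed-free leaves (log2 fold change 1.92 ± 0.36 SE, adjusted p = 0.0266). In weedy leaves it had 3.41, 3.43 and 2.89 TPM, which overlapped weed-free. Its difference between weedy and far-red leaves was -1.95 ± 0.36 on the log2 scale (SE, adjusted p = 0.00371). Unlike *CHS*, whose weedy libraries were at 0.517, 0.493 and 0.608 times the weed-free library of the same number, *CHIL* there was at 0.918, 0.906 and 1.10 times. The difference between these genes was not tested.

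*FLS1* (AT5G08640), flavonol synthase (chr5:2803833-2805606), was the only member that passed the test in all 3 comparisons. It fell to 2.14, 1.51 and 1.90 TPM in weedy leaves, against 4.52, 4.15 and 3.06 TPM in weed-free leaves (log2 fold change -0.78 ± 0.18 SE, adjusted p = 0.0238). It rose to 11.6, 8.65 and 7.82 TPM in far-red leaves (log2 fold change 1.07 ± 0.18 SE against weed-free, adjusted p = 0.00959). Between weedy and far-red leaves the log2 fold change was -1.85 ± 0.18 (SE, adjusted p = 0.000146).

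*CHI* (AT3G55120), chalcone isomerase, had the same order in every library, with 3.72, 3.72 and 3.12 TPM in weedy leaves, 11.6, 11.4 and 6.73 TPM in far-red leaves and 6.07, 6.35 and 4.18 TPM in weed-free leaves. Weedy leaves were lower than far-red leaves by -1.24 ± 0.20 on the log2 scale (SE, adjusted p = 0.0013). The rise in far-red leaves over weed-free passed with the replicate block (log2 fold change 0.72, adjusted p = 0.0721 without it and 0.0136 with it). Weedy leaves differed from weed-free by -0.52 on the log2 scale (adjusted p = 0.119 without and 0.0387 with the block, in a comparison whose numbers did not meet the criterion for pairs). *F3H* (AT3G51240), flavanone 3-hydroxylase, did not pass the filter, with 1.75, 4.77 and 0.370 TPM in far-red leaves, against 0.198, 0.586 and 0.170 TPM in weed-free leaves. Its exons share 1415 bases with *AT3G51238* on the opposite strand. That gene was listed at 3.69, 3.47 and 1.65 TPM in weedy leaves, 17.2, 12.1 and 4.67 TPM in far-red leaves and 4.35, 2.54 and 2.06 TPM in weed-free leaves. Whether counting used strand is not given in the sources used here, so reads of such pairs cannot be told apart. *F3'H* (AT5G07990), the flavonoid 3'-hydroxylase, stayed between 0.352 and 0.840 TPM in all libraries.

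**Figure D1:**
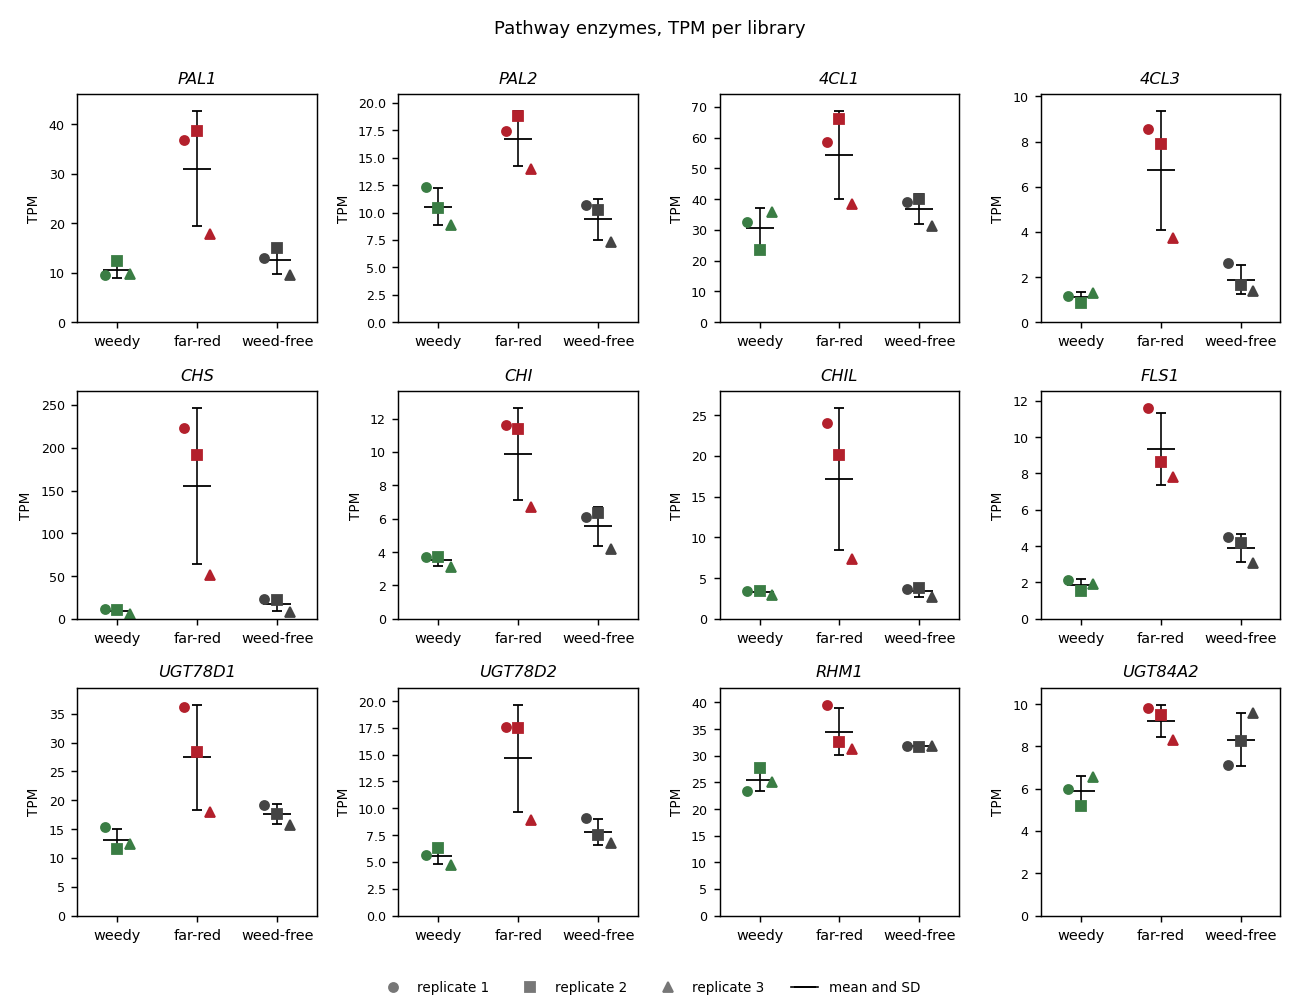
TPM of 12 pathway enzymes in weedy, far-red and weed-free libraries, each panel on its own axis from 0; points are libraries, shaped by replicate number, and bars show the mean and SD of 3 libraries. *CHS* lies at 51.4 to 223 TPM in far-red leaves, above the 5.12 to 12.0 TPM of weedy leaves and the 8.43 to 23.3 TPM of weed-free.

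The flavonol glycosylation genes were lower in weedy than in far-red leaves in 3 of 4 cases, and none passed against weed-free in the main fit (limma). At an unadjusted p under 0.05, 1 of the 4 was lower in weedy than in weed-free leaves, where 1665 of 17784 genes tested were. In far-red leaves 2 were higher at that threshold, where 1844 of all genes tested were. *UGT78D1* (AT1G30530), which adds rhamnose to flavonols, had 15.3, 11.6 and 12.4 TPM in weedy leaves, against 36.1, 28.4 and 17.9 TPM in far-red leaves (log2 fold change -0.97 ± 0.21 SE, adjusted p = 0.00603). Weed-free lay between, with 19.2, 17.6 and 15.8 TPM, and overlapped far-red leaves only. *UGT78D2* (AT5G17050), a flavonoid glucosyltransferase, had 5.67, 6.26 and 4.75 TPM in weedy leaves, against 17.6, 17.5 and 8.89 TPM in far-red leaves (log2 fold change -1.20 ± 0.23 SE, adjusted p = 0.00287), with 9.08, 7.48 and 6.72 TPM in weed-free leaves. Its difference between far-red leaves and weed-free passed with the block (log2 fold change 0.79, adjusted p = 0.0793 without it and 0.0205 with it).

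*RHM1* (AT1G78570), which makes the UDP-rhamnose that these enzymes use, differed less, with 23.5, 27.8 and 25.2 TPM in weedy leaves, against 39.6, 32.7 and 31.3 TPM in far-red leaves (log2 fold change -0.42 ± 0.12 SE, adjusted p = 0.0206). The weed-free libraries were close to each other at 31.8, 31.7 and 31.9 TPM, and all lay above those of weedy leaves (adjusted p = 0.12). *UGT89C1* (AT1G06000) ranged from 3.89 to 18.7 TPM with overlap in every comparison. Nearly its whole length, 1580 bases, is shared with *AT1G06002* on the opposite strand, which was listed at 6.98 to 13.5 TPM in far-red leaves and at 0 in all weedy libraries.

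Transcripts of the anthocyanin branch were low, and only 3 of its 8 genes passed the filter. *UGT84A2* (AT3G21560), which makes the sinapoyl glucose used to decorate anthocyanins, had 5.996, 5.17 and 6.54 TPM in weedy leaves, against 9.81, 9.47 and 8.33 TPM in far-red leaves (log2 fold change -0.57 ± 0.14 SE, adjusted p = 0.0102). Its weed-free libraries, at 7.11, 8.26 and 9.60 TPM, were also above weedy leaves, without passing the test (adjusted p = 0.0732). *UGT75C1* (AT4G14090) and *BGLU10* (AT4G27830) did not pass the test in any comparison and ranged from 1.76 to 3.47 and from 3.44 to 5.57 TPM.

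Among the genes under the filter, *TT19* (AT5G17220), a glutathione S-transferase needed for anthocyanin transport, was listed at 0, 0 and 0.0394 TPM in weedy leaves, at 2.04, 1.09 and 0.0746 TPM in far-red leaves and at 0.825, 0.819 and 0.0909 TPM in weed-free leaves. *LDOX* (AT4G22880), leucoanthocyanidin dioxygenase, had 0.398, 0.631 and 0.180 TPM in weedy leaves, 1.94, 1.04 and 0.455 TPM in far-red leaves and 0.616, 0.553 and 0.424 TPM in weed-free leaves. *DFR* (AT5G42800), dihydroflavonol reductase, did not exceed 0.798 TPM in any library, *UGT79B1* (AT5G54060) did not exceed 0.254 TPM and *5MAT* (AT3G29590) did not exceed 0.122 TPM. The summed TPM of the 8 anthocyanin genes was 12.4 to 15.4 in weedy leaves, 15.9 to 22.5 in far-red leaves and 15.4 to 16.5 in weed-free leaves. The 6 early flavonoid genes summed to 13.8 to 22.9, 74.2 to 273 and 19.0 to 38.1 TPM in the same order of groups.

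**Figure D2:**
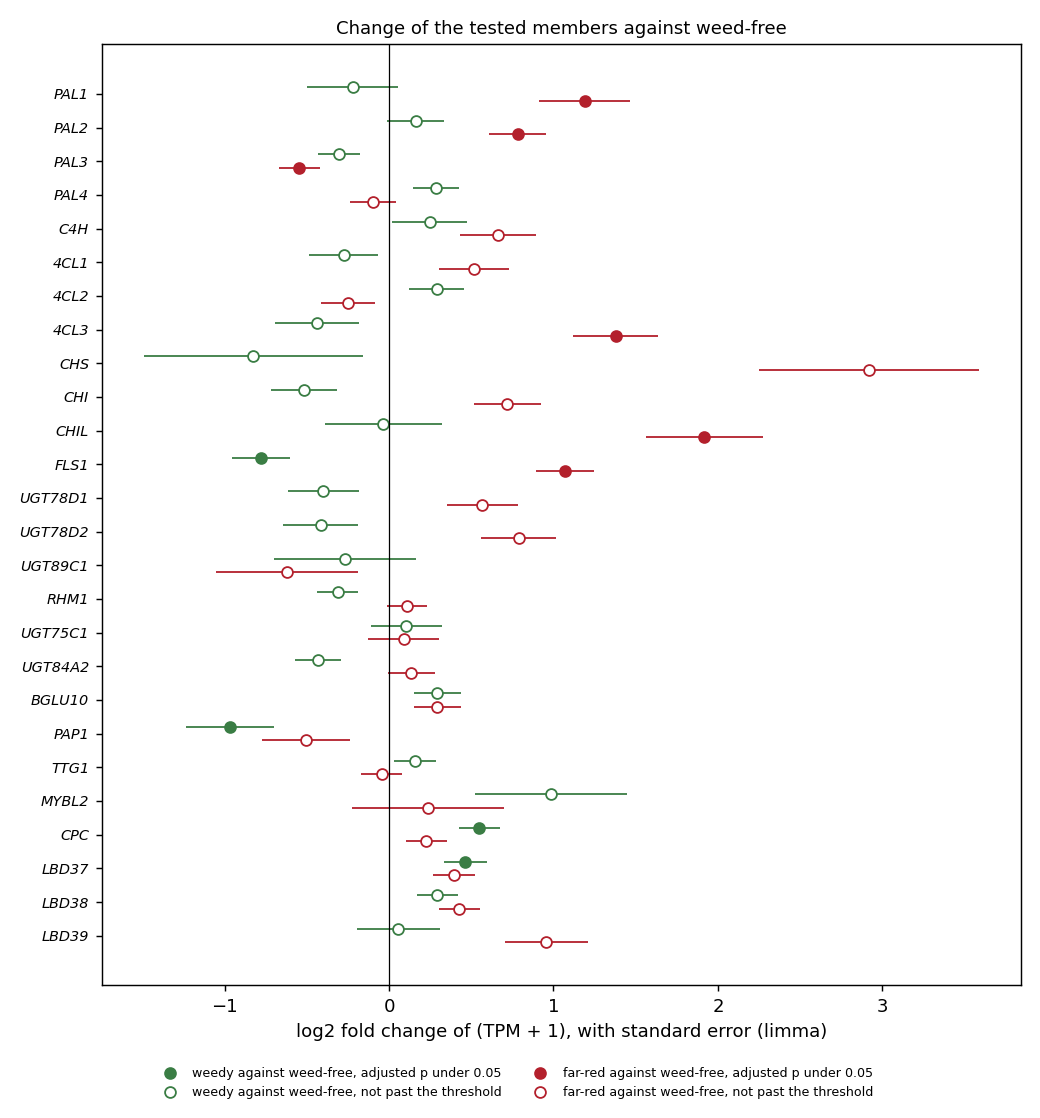
Log2 fold change of the 26 tested members in weedy leaves (green) and far-red leaves (red) against weed-free, with standard errors from limma; filled points have an adjusted p under 0.05. *FLS1* lies on opposite sides of 0, at -0.78 in weedy leaves and at 1.07 in far-red leaves, and the 2 comparisons share the weed-free libraries.

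The regulators that activate the pathway were scarce. *MYB111* (AT5G49330) was the most abundant flavonol MYB, with 0.504, 0.205 and 0.935 TPM in weedy leaves, 0.704, 1.31 and 1.01 TPM in far-red leaves and 0.378, 0.572 and 0.929 TPM in weed-free leaves, and the groups overlapped. *MYB12* (AT2G47460) stayed at or under 0.419 TPM and *MYB11* (AT3G62610) at or under 0.273 TPM. None of the 3 passed the filter. *MYB11* was listed at 0 in all weedy libraries, at 0.273, 0.217 and 0.0943 TPM in far-red leaves and at 0, 0 and 0.0881 TPM in weed-free leaves, so its far-red libraries overlapped neither group. With no filter it was lower in weedy than in far-red leaves (adjusted p = 0.016, limma), and no other member under the filter passed in that setting. *PAP1* (AT1G56650), the R2R3-MYB activator of anthocyanin synthesis, fell to 0.553, 0.991 and 0.141 TPM in weedy leaves, against 2.06, 1.41 and 2.58 TPM in weed-free leaves (log2 fold change -0.97 ± 0.27 SE, adjusted p = 0.0471). Far-red leaves had 2.01, 0.944 and 0.573 TPM and overlapped both. *PAP1* reached 1 TPM only in the weed-free libraries and far-red replicate 1, so it passed the filter through the group where it was high. The call of *PAP1* did not hold with no filter, where no member was lower in weedy leaves against weed-free. Nor did it hold with a pseudocount of 0.1 (adjusted p = 0.0634, with a range of 0.0265 to 0.158 over all alternatives).

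*PAP2* (AT1G66390), its close relative, was listed at 0 in all 9 libraries. The bHLH partners *TT8* (AT4G09820), *GL3* (AT5G41315) and *EGL3* (AT1G63650) reached at most 0.104, 0.0823 and 0.318 TPM. *TTG1* (AT5G24520), the WD40 partner, was abundant at 37.6, 28.4 and 31.6 TPM in weedy leaves, 26.9, 30.0 and 27.1 TPM in far-red leaves and 27.5, 29.1 and 30.1 TPM in weed-free leaves, with overlap in every comparison.

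All 5 repressors were tested, and 2 of them rose in weedy leaves. *CPC* (AT2G46410), a single-repeat MYB that competes for the bHLH partner, had 1.92, 1.99 and 2.20 TPM in weedy leaves, against 0.955, 1.12 and 1.15 TPM in weed-free leaves (log2 fold change 0.55 ± 0.12 SE, adjusted p = 0.0241). Far-red leaves lay between at 1.43, 1.41 and 1.44 TPM, with no overlap with either group. *LBD37* (AT5G67420), a LOB-domain repressor of anthocyanin genes that responds to nitrate, had 67.6, 61.6 and 51.1 TPM in weedy leaves, against 42.8, 45.2 and 41.0 TPM in weed-free leaves (log2 fold change 0.46 ± 0.13 SE, adjusted p = 0.0451). That call was lost with median-ratio scaling (adjusted p = 0.173, with a range of 0.00708 to 1.00 over all alternatives, the deposited counts included). Leaving out single libraries gave at most 0.166. Far-red leaves had 59.9, 59.4 and 51.6 TPM, above every weed-free library as well (adjusted p = 0.109).

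*LBD39* (AT4G37540), of the same family, had 14.3, 16.7 and 7.39 TPM in weedy leaves, against 23.4, 26.2 and 21.3 TPM in far-red leaves (log2 fold change -0.90 ± 0.25 SE, adjusted p = 0.0192), with 13.9, 12.1 and 9.35 TPM in weed-free leaves. In far-red leaves against weed-free its log2 fold change of 0.96 passed with the block (adjusted p = 0.0103) and not in the main fit (0.064). Over all alternatives its adjusted p ranged between 0.00247 and 0.254. The same held for *LBD38* (AT3G49940) (log2 fold change 0.43, adjusted p = 0.0484 and 0.0801, with a range of 0.0332 to 0.743). *LBD38* had 18.6, 16.2 and 14.9 TPM in weedy leaves, 17.7, 18.3 and 18.6 TPM in far-red leaves and 14.8, 13.1 and 12.1 TPM in weed-free leaves.

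*MYBL2* (AT1G71030), a single-repeat MYB repressor, was the most abundant of all 40 members by its mean, with 207, 217 and 90.5 TPM in weedy leaves, 88.0, 102 and 95.0 TPM in far-red leaves and 109, 114 and 41.1 TPM in weed-free leaves. In weedy leaves each library was 1.89, 1.90 and 2.20 times the weed-free library of the same number. Across numbers the groups overlapped, since replicate 3 was low in both, and the log2 fold change of 0.98 ± 0.46 (SE) did not pass the test (adjusted p = 0.205). With the block its adjusted p was 0.0564, and over all alternatives it ranged between 0.0022 and 0.542. Against far-red leaves the log2 fold change of 0.75 did not pass either (adjusted p = 0.237, with a range of 0.00011 to 0.986).

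**Figure D3:**
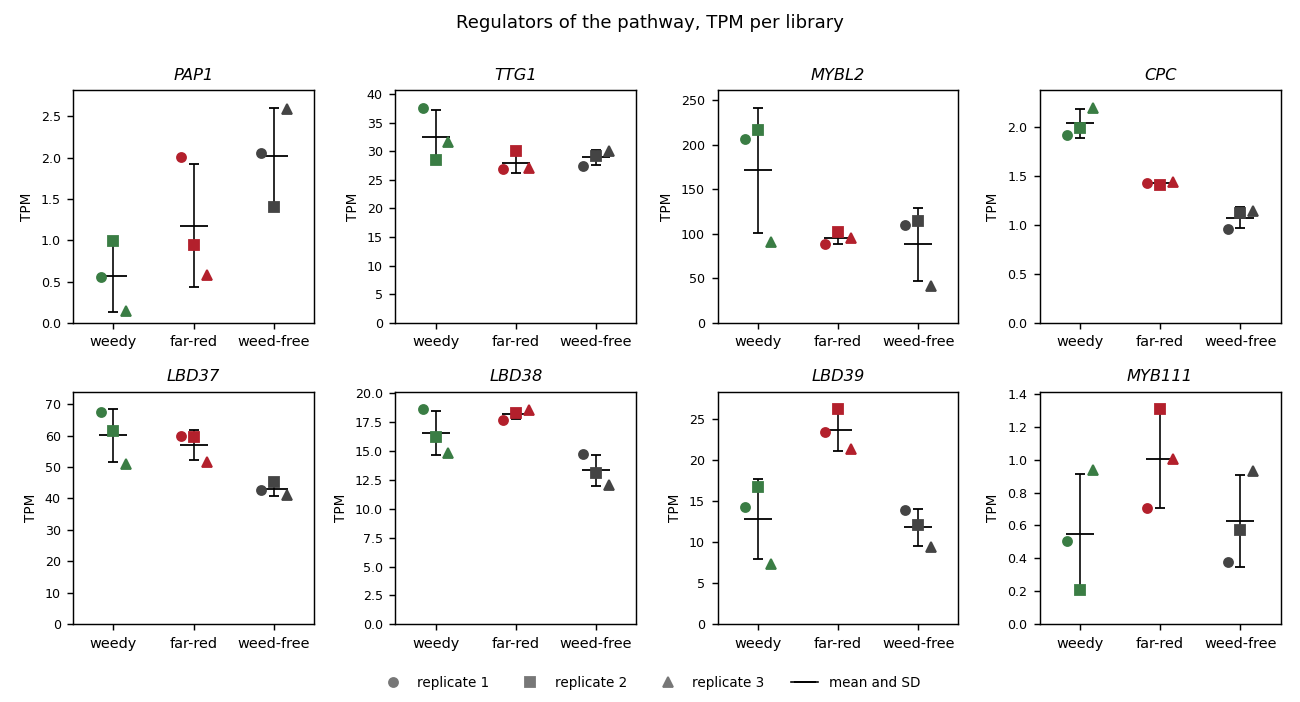
TPM of 8 regulators in weedy, far-red and weed-free libraries, each panel on its own axis from 0; points are libraries, shaped by replicate number, and bars show the mean and SD of 3 libraries. *CPC* falls into 3 separate levels, at 1.92 to 2.20, 1.41 to 1.44 and 0.955 to 1.15 TPM, while *MYBL2* is low in replicate 3 of weedy leaves (90.5 TPM) and of weed-free (41.1 TPM).

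The libraries of weedy leaves lay wholly below those of far-red leaves for 13 tested members and wholly above for 4, where this held for 17.9% and 35.2% of all genes tested. Against weed-free, 13 tested members were wholly higher in far-red leaves and 1 wholly lower (13.6% and 14.4% of all genes), and 4 were wholly higher in weedy leaves and 9 wholly lower (19.0% and 10.7% of all genes). For a single gene without overlap the exact permutation test gave a two-sided p of 0.1, the smallest that 3 libraries against 3 allow. *4CL3*, *CHI* and *FLS1* were above weed-free in every far-red and below it in every weedy library, an order found in 3.8% of all genes tested.

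The calls between weedy and far-red leaves depended least on single libraries. *CHS*, *CHI*, *CHIL*, *FLS1*, *4CL3*, *PAL1*, *UGT78D1* and *UGT78D2* passed the test there whichever of the 9 libraries was left out. *UGT84A2* was lost without far-red replicate 1, *4CL1* and *LBD39* without far-red replicate 1 or 2, *RHM1* without weedy or far-red replicate 1, *PAL2* without weedy replicate 3 or far-red replicate 1 or 2, and *4CL2* without weedy replicate 2 or far-red replicate 2 or 3. Against weed-free, *FLS1* in far-red leaves passed in 8 of 9 such fits and was lost without far-red replicate 1 (adjusted p = 0.0505). *4CL3* passed in 5, *PAL3* in 4, *PAL2* and *CHIL* in 3 and *PAL1* in 1 of 9. Each of these 5 calls was lost without far-red replicate 1 or 2 and without weed-free replicate 2 or 3, those of *PAL1*, *PAL2*, *PAL3* and *CHIL* also without weed-free replicate 1, those of *PAL1*, *PAL2* and *CHIL* without weedy replicate 2, and that of *PAL1* without weedy replicate 1 or 3.

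In weedy leaves against weed-free, *CPC* passed in 6, *FLS1* in 5, *PAP1* in 3 and *LBD37* in 2 of 9 such fits. All 4 were lost without weedy replicate 1 and without weed-free replicate 1 or 2. *FLS1* and *LBD37* were also lost without weedy replicate 2, *PAP1* without weedy replicate 3, *PAP1* and *LBD37* without weed-free replicate 3 or far-red replicate 2, and *LBD37* without far-red replicate 1. The adjusted p of these 4 calls reached between 0.102 and 0.166 at most.

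A further 37 genes of the pathway outside the 40 loci, in lists of the monolignol and sinapate branch (15), the proanthocyanidin branch (6) and other regulators (16), were examined in the same fit, and 24 passed the filter. Of these 24, weedy leaves raised 2 and lowered 1, where 6.2% and 3.37% of all genes rose and fell, and far-red leaves raised 5 and lowered none, where 2.53% and 1.24% did (limma). At an unadjusted p under 0.05, 9 were higher and 3 lower in far-red leaves, where 1844 and 1782 of all genes tested were. In the counts table limma, edgeR and DESeq2 fitted 17, 13 and 26 of the 37 genes. With each tool, 1 was lower and none higher in far-red leaves at an adjusted p under 0.05. Of all genes fitted, 134 of 7132, 161 of 6719 and 160 of 16601 were lower there. In weedy against far-red leaves 4 were higher and 10 lower in the main fit, where 23.8% and 13.6% of all genes were. No proanthocyanidin gene passed the filter, and *BAN*, *TT10* and *TT16* were listed at 0 in all 9 libraries.

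*HYH*, the close relative of *HY5*, had 1.73, 1.51 and 1.19 TPM in weedy leaves, 22.3, 23.8 and 8.10 TPM in far-red leaves and 3.22, 2.69 and 3.55 TPM in weed-free leaves. It rose in far-red leaves by a log2 fold change of 2.07 ± 0.33 (SE, adjusted p = 0.0144). *HY5* itself had 8.63, 10.2 and 5.74 TPM in far-red leaves, against 3.44, 1.95 and 3.33 TPM in weed-free leaves (log2 fold change 1.23 ± 0.22 SE, adjusted p = 0.0158), and 3.13, 2.44 and 1.93 TPM in weedy leaves. *SAT*, a sinapoyl transferase of anthocyanins, had 2.95, 3.68 and 1.76 TPM in far-red leaves, against 1.04, 0.857 and 0.619 TPM in weed-free leaves (log2 fold change 1.02 ± 0.20 SE, adjusted p = 0.0239). It reached 1 TPM only in the far-red libraries and weed-free replicate 1, so it passed the filter through the group where it was high. The fifth gene to rise was the lignin gene *CAD4* (log2 fold change 1.01, adjusted p = 0.0268), named after its values were seen.

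*TRY*, a single-repeat MYB related to *CPC*, ran against it, with 0.880, 0.755 and 0.659 TPM in weedy leaves, 24.4, 25.1 and 11.7 TPM in far-red leaves and 4.27, 4.32 and 2.03 TPM in weed-free leaves. It fell in weedy leaves (log2 fold change -1.32 ± 0.29 SE, adjusted p = 0.0266) and rose in far-red leaves (2.21 ± 0.29 SE, adjusted p = 0.00533). The Kelch-repeat F-box proteins target phenylalanine ammonia-lyase or, in the case of *KFB-CHS*, chalcone synthase for degradation. *KFB20* had 68.5, 64.4 and 35.3 TPM in weedy leaves, against 27.4, 28.8 and 22.6 TPM in weed-free leaves (log2 fold change 1.02 ± 0.22 SE, adjusted p = 0.0218), and 13.5, 15.3 and 16.1 TPM in far-red leaves. Every weedy library of *KFB20* lay above, and every far-red library below, all weed-free libraries, as also for the cinnamyl alcohol dehydrogenase *CAD5*, named after its values were seen, an order found in 4.34% of all genes tested. *KFB-CHS* had 118, 119 and 102 TPM in weedy leaves, against 78.7, 80.6 and 69.6 TPM in weed-free leaves (log2 fold change 0.56 ± 0.15 SE, adjusted p = 0.0385), and 49.2, 58.5 and 72.6 TPM in far-red leaves, where it overlapped weed-free.

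**Figure D4:**
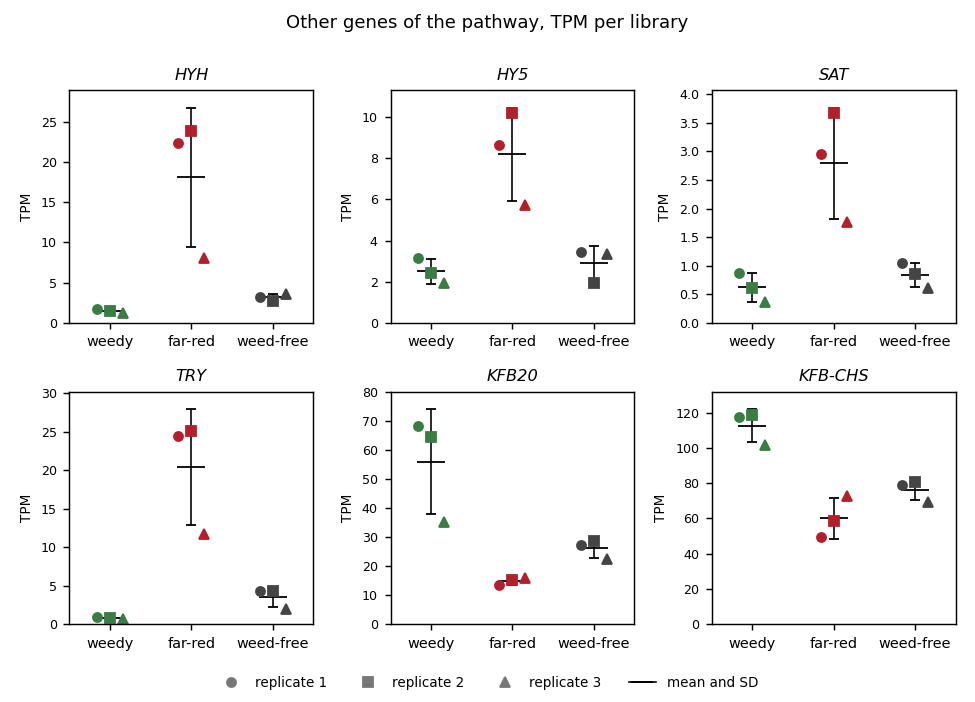
TPM of 6 further genes of the pathway in weedy, far-red and weed-free libraries, each panel on its own axis from 0; points are libraries, shaped by replicate number, and bars show the mean and SD of 3 libraries. *TRY* is at 11.7 to 25.1 TPM in far-red leaves, above all other libraries, and *KFB20* is at 35.3 to 68.5 TPM in weedy leaves, above all others.

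Some other measures also differed between weedy and far-red leaves. The clock gene *CCA1* had 5.24, 3.61 and 1.47 TPM in weedy leaves, 37.0, 40.9 and 8.21 TPM in far-red leaves and 4.12, 4.55 and 1.27 TPM in weed-free leaves. *ELF4*, which peaks in the evening, had 141, 143 and 439 TPM in weedy leaves, 3.86, 3.27 and 80.2 TPM in far-red leaves and 108, 104 and 449 TPM in weed-free leaves. Of the 5 clock genes examined, all of which were tested, 3 were higher and 1 lower in weedy than in far-red leaves, where 23.8% and 13.6% of all genes were. Against weed-free, none passed in the main fit in either treatment. With the replicate block, none passed in weedy leaves, and 2 were higher and 3 lower in far-red leaves, where 4.61% and 3.65% of all genes were. Replicate 3, with the lowest *CHS* of each group, also had the lowest *CCA1* and the highest *ELF4*. The hour of harvest is not given in the sources used here, and the part of clock state in the levels of the pathway was not tested. Epidermal markers summed to 40.7 to 59.1 TPM in weedy leaves, 29.0 to 33.6 TPM in far-red leaves and 31.5 to 36.6 TPM in weed-free leaves. Vascular markers summed to 34.4 to 57.2, 29.9 to 32.3 and 36.1 to 39.6 TPM and guard cell markers to 24.0 to 33.3, 24.4 to 29.4 and 21.5 to 28.8 TPM in the same order of groups. Of these 8 marker genes, 7 passed the filter and 4 were higher in weedy than in far-red leaves, where 23.8% of all genes tested were. These were *ATML1* and *FDH* of the epidermis, *SUC2* of the phloem (log2 fold change 0.66, adjusted p = 0.00582, limma) and *FAMA* of the guard cells (0.56, 0.0263). The guard cell gene *KAT1* leaned the other way (-0.34, 0.091) without passing. *MYB60* of the guard cells (0.08, 0.73) and *AHA3* of the vasculature (0.21, 0.441) did not pass either. The part of these cell types in the levels of the pathway was not tested. In whole leaves fewer cells of a type and less RNA per cell cannot be told apart.

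The deposited table of normalized counts, a separate product of the same libraries, holds 26 of the 40 members with few reads. A member had between 15 and 3529 reads over all 9 libraries, 17 of the 26 had fewer than 100, and counts hardly followed TPM across genes of a library (Spearman's rho 0.054 to 0.119, over 16587 genes, which are not independent replicates). In that table limma, edgeR and DESeq2 fitted 12, 9 and 26 members among 7132, 6719 and 16601 genes, and no member passed against weed-free. At an unadjusted p under 0.05, up to 1 was higher and up to 1 lower in weedy leaves, where 685 to 781 genes were higher and 690 to 793 lower. In far-red leaves 2 to 4 were higher and up to 1 lower, where 569 to 616 genes were higher and 662 to 703 lower. In weedy against far-red leaves 2 members were lower with each tool, where 870, 896 and 733 of all genes fitted were. *CHS* had a log2 fold change of -4.46 there with an adjusted p of 0.0527 (DESeq2). The 2 members were *RHM1* and *TT19*, both named after their values were seen. Both genes share exon bases with a gene on the opposite strand, *RHM1* 109 bases with *AT1G09823*, which was listed at 0.0611 to 0.46 TPM, and *TT19* 108 bases with *AT5G17230*, which had 77.8 to 95.6 TPM in weedy leaves, 105 to 117 TPM in far-red leaves and 95.7 to 110.3 TPM in weed-free leaves. *TT19* had 501 reads in that table although its TPM did not exceed 2.04 in any library, and reads of such pairs cannot be told apart. *MYBL2*, the most abundant member by mean TPM, had 85 reads there. *UGT89C1*, which overlaps a gene on the opposite strand over nearly its whole length, had 3529. The cause of this mismatch was not tested.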

How the data were processed

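Leaf RNA was sequenced on an Illumina instrument in 9 libraries of 3 plants each. Reads were aligned to the TAIR10.1 assembly with Bowtie2 2.4.3 and counted with HTSeq 0.13.5, and the authors tested them with DESeq2 1.30.1. Bowtie2 does not split reads over introns, so reads across junctions may be missing. Per library, the authors deposited a table of TPM, FPKM and mean per-base coverage (a signal with no stated scaling). The program that made it and the strand setting are not given in the sources used here. The deposited normalized counts, a signal of 16601 genes, are whole reads divided by a size factor (100% of values whole within 1e-06). Deposited tables of fold changes and p-values for the 3 comparisons were not used.

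Genes with at least 1 TPM in at least 3 libraries (17784) were tested on log2(TPM + 1) with limma 3.58.1 (trended, robust, R 4.3.3) in a single fit to 9 libraries, two-sided. Duplicated organelle entries were summed. The study describes 3 independent experiments, but which library came from which is not given in the sources used here. Same-numbered libraries correlated in their deviations at 0.166 to 0.307 in far-red and weed-free libraries and were taken as paired there, but at 0.00311 to 0.27 in weedy and weed-free libraries and at -0.0298 to 0.174 in weedy and far-red libraries, and were not, since every pair had to exceed 0.1. Far-red replicate 1 and weed-free replicate 2 also exceeded it (0.136), so numbers 1 and 2 are not clearly told apart. The block was a single term over all 9 libraries. The alternatives were a pseudocount of 0.1, no filter, median-ratio scaling, nuclear genes only, FPKM, no trend, the replicate block, each library left out, and the counts with limma, edgeR 4.0.16 and DESeq2 1.42.0. The models were tested on simulated data. Values per library are given for members that passed the test in any comparison and the most abundant of each role, and up to 4 other pathway genes per comparison by adjusted p. The members and lists were chosen with earlier results of these data known.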

Additional observations from a re-analysis of the deposited data

Results flagged for a closer look

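Genes of which every library of 1 low R:FR treatment lay above and every library of the other below all weed-free libraries are given here with the log2 fold change of weedy against far-red leaves. That direct difference was tested by limma, and both treatments share the weed-free libraries. Of the members, *FLS1* (-1.85), *4CL3* (-1.82) and *CHI* (-1.24) lay above weed-free in far-red and below it in weedy leaves. Of the other pathway genes, *TRY* (-3.53), *HYH* (-2.82) and the monolignol methyltransferase *CCoAOMT1* (-0.56) had the same order. *KFB20* (1.79) and the cinnamyl alcohol dehydrogenase *CAD5* (0.58) had the opposite order. All 8 passed the test between weedy and far-red leaves (adjusted p between 0.000146 and 0.00643). The order by which they were picked already separates these groups, so passing adds no separate support. Among all genes tested, the 2 orders were found in 3.8% and 4.34%. Groups of 3 libraries are too small for a search for single outlying samples.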

How the results depend on the processing

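Leaving out libraries gave 0 to 2 members higher and 0 to 2 lower in weedy leaves against weed-free (all genes 191 to 2991), 0 to 12 and 0 to 1 in far-red leaves against weed-free (93 to 1981), and 0 to 3 and 8 to 14 in weedy against far-red leaves (3715 to 7592). In weedy leaves against weed-free, 1 member was higher with no filter, median-ratio scaling, no trend, or median-ratio scaling with the replicate block, and 0 in the counts table with limma, edgeR or DESeq2. There, members lower were 1 with a pseudocount of 0.1 or no trend, 0 with no filter or in the counts table by any of the 3 tools, 4 with the replicate block, 5 with the block and median-ratio scaling, and 6 without replicate number 3. All genes called there were 789 with no filter, 327, 241 and 323 in the counts table (limma, edgeR, DESeq2), 5001 without replicate number 3 and 2675 with the block and median-ratio scaling.

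In far-red leaves against weed-free, members higher were 1 with no filter, 3 with median-ratio scaling, 11 with the replicate block, 13 with the block and median-ratio scaling, 13 without replicate number 3 and 0 in the counts table by each tool, and members lower were 0 with no filter, either median-ratio setting or the counts table. All genes called there were 258 with no filter, 1017 with median-ratio scaling, 1468 with the block, 1826 with both, 2977 without replicate number 3, and 234, 297 and 302 in the counts table. In weedy against far-red leaves, members higher were 3 with no filter or no trend, 2 with the block or without replicate number 3, and 0 with either median-ratio setting or the counts table. Members lower were 2 and all genes called 1784, 1885 and 1564 in the counts table. Leaving out far-red replicate 1 gave 8 members lower, and no other setting moved that count by more than 1.5 times.

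In the counts table the log2 fold changes of some members turned round (limma, edgeR and DESeq2 in order, where each reversed). In weedy leaves against weed-free *UGT84A2* was at 0.11, 0.12 and 0.12, *LBD37* at -0.083 (limma) and -0.00032 (edgeR) and *LBD38* at -0.16 (limma). In weedy against far-red leaves *4CL2* was at -0.27, -0.24 and -0.27, *UGT84A2* at 0.57, 0.42 and 0.43 and *PAL2* at 1.11 (DESeq2). None of these passed the test (adjusted p between 0.208 and 1.00), and the cause was not tested. No other setting turned a sign. The replicate block, applied where the numbers did not meet the criterion for pairs, put *CHS* (log2 fold change -0.83, adjusted p = 0.0255) and *CHI* (-0.52, 0.0387) past the threshold in weedy leaves against weed-free, and *PAL4* (0.38, 0.0407) and *C4H* (-0.42, 0.0335) in weedy against far-red leaves. Some members passed in far-red leaves against weed-free with the block and not in the main fit. Their adjusted p over all alternatives, with the counts where they gave a value, ranged up to 0.425 for *C4H*, 0.269 for *CHS*, 0.307 for *CHI*, 0.316 for *UGT78D2*, 0.743 for *LBD38* and 0.254 for *LBD39*. Settings with the block and median-ratio scaling together, and without replicate number 3, were added after seeing the data. Depth limits the 14 members under the filter. The counts table holds few reads of most members and hardly follows TPM, and the cause was not tested.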
